A study of Mus musculus with 24 samples.

Results

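Irf1 and 9 interferon-inducible GTPase genes (Gbp2, Gbp3, Gbp6, Gbp7, Gbp9, Igtp, Irgm1, Irgm2 and Iigp1) were followed in mouse small intestinal organoids, which are epithelial structures grown in culture from crypts. These 10 genes of the 54146 in each count table were listed by name as genes that interferon-gamma induces, and were matched by symbol to their Ensembl identifiers. RNA was sequenced in 2 experiments of 12 libraries, with 4 groups of 3 libraries in each. In the first, WT organoids, Cdk8-/- organoids, Cdk19-/- organoids and organoids without both genes (Cdk8-/-/Cdk19-/-, double knockout) had all received 600 nM 4-hydroxytamoxifen for 7 days. Tamoxifen activates a CreERT2 recombinase driven by the Villin promoter, which is active in intestinal epithelium, and the recombinase removes exon 2 of the floxed Cdk8 gene, whereas Cdk19 was mutated with a lentiviral CRISPR vector and mutant organoids were grown from single picked organoids. The study describes its organoids as coming from WT mice and from floxed mice with this Cre, while its methods also name floxed mice without Cre as a source. In the second experiment WT organoids were treated for 16 h or 24 h with Senexin B, an inhibitor of the CDK8 and CDK19 kinases, or with its solvent DMSO. The replicates are described as biological triplicates, but the labels do not say what separates them, so p-values measure the spread between these libraries.

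CDK8 and its paralog CDK19 are alternative kinases of the Mediator complex, which links transcription factors to RNA polymerase II. Interferon-gamma binds the receptor of IFNGR1 and IFNGR2, and the kinases JAK1 and JAK2 then activate transcription through gamma-activated sites (GAS) in promoters. IRF1, itself induced in this way, then binds interferon-stimulated response elements (ISRE). The guanylate-binding proteins (GBP) are large GTPases that coat the vacuoles and membranes of intracellular pathogens, while the immunity-related GTPases include the regulators IRGM1, IRGM2 and IGTP (also called IRGM3) and effectors such as IIGP1 (also called IRGA6), which disrupt pathogen vacuoles.

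The promoters were examined first, because GAS and ISRE are the elements through which interferons act on these genes. A window from 250 bases before to 50 bases after the start was taken from RefSeq (GRCm38.p6) for 7 of the 10 genes, with 2 alternative starts for Irf1 and for Gbp3. Both strands were searched for the GAS letters TTCNNNGAA and the ISRE letters GAAANNGAAA, which do not overlap each other in these windows. ISRE letters were found in 6 of the 7 genes, that is in all but Irf1, and GAS letters in 4, namely Irf1, Gbp7, Igtp and Irgm2. Of all 27025 genes in the table, 3.99% had an ISRE and 9.55% a GAS match in a window, and of all 32817 windows 3.43% and 8.29%. The stretches that hold the matches are shown 5′ to 3′ on the strand of the gene, with the matching letters in capitals. They lie at chr11:53769894-53770013 for Irf1, chr3:142620594-142620623 for Gbp2, chr3:142559924-142560025 for Gbp3, chr3:142530216-142530335 for Gbp7, chr11:58199436-58199555 for Igtp, chr11:48871428-48871457 on the minus strand for Irgm1 and chr11:58214857-58214976 for Irgm2. The sites of Gbp2 and Irgm1 lie within an exon of a longer annotated transcript and are shown with 30 bases around them, whereas the other stretches lie in no annotated exon.
Irf1: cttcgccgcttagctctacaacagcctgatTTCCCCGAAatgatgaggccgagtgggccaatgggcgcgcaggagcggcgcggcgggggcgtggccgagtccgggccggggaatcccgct
Gbp2: actcttttagTTTCACTTTCactgtcttaa
Gbp3: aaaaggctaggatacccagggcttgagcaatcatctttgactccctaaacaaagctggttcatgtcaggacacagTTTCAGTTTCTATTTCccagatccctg
Gbp7: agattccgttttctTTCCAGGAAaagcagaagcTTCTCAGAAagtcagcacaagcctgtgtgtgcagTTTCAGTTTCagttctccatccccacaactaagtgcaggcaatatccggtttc
Igtp: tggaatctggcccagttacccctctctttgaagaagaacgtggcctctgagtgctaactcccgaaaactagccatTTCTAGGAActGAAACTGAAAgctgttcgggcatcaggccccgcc
Irgm1: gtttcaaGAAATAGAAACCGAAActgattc
Irgm2: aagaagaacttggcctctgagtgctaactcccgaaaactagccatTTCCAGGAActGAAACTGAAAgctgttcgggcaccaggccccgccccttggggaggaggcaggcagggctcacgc

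In Igtp and Irgm2, neighbours on chromosome 11, a GAS was followed by an ISRE at the same spacing, and their windows shared an identical run of 61 bases. This run holds neither motif, since the sequences differ within the GAS and again after the ISRE. The longest run shared by any other pair of genes was 13 bases, in Gbp3 and Gbp7. Gbp3 and Irgm1 each had a pair of overlapping ISRE matches. The matches of these 7 genes began between 24 and 106 bases before the start. Gbp6 and Gbp9 had no entry among the annotated starts, and Iigp1 was left out of the search. The counts of genes with a match therefore do not cover Gbp6, Gbp9 and Iigp1. A match describes the letters only, and the binding of a factor was not measured.

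**Figure D1:**
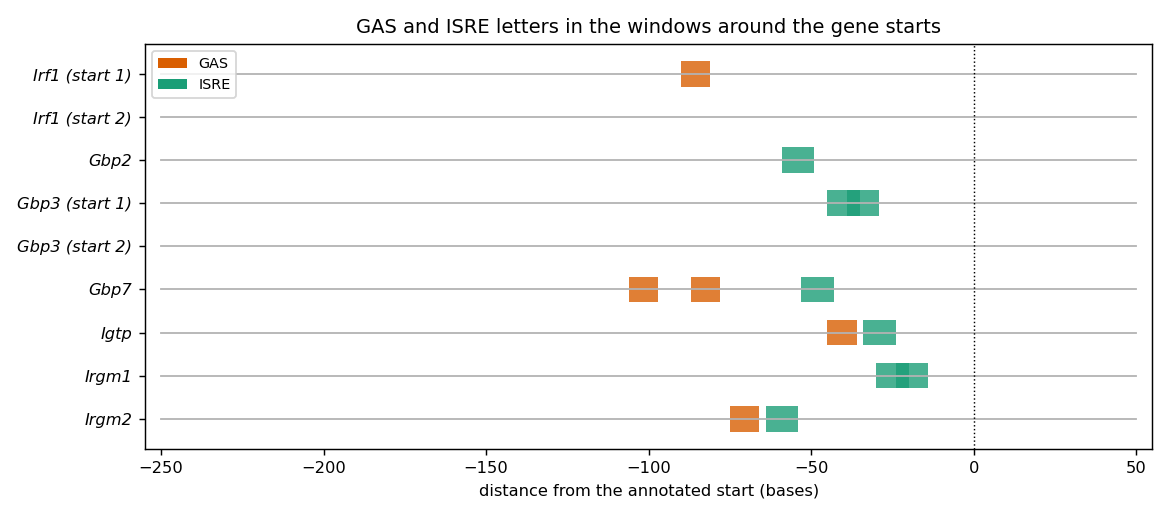
Positions of GAS and ISRE letters (coloured boxes, box width is the length of the motif) in windows around the annotated starts of 7 genes. The horizontal axis is the distance from the start in bases, with negative values before the start. Matches fall between 106 bases before the start and the start itself, and the second starts of Irf1 and Gbp3 hold none.

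The libraries of the genotype experiment held 14636861 to 15473180 counted reads and those of the Senexin B experiment 27075937 to 28405118. These are the reads of 1 strand column. It held a median of 49.8% of the reads assigned to a strand of a gene in the genotype experiment and 91.9% in the Senexin B experiment. The labels name the cell type 4T1, which is a mammary tumour line, yet all 6 epithelium markers were detected in every group, with Vil1 and Cdx2, which mark intestinal epithelium, among them. Among the immune markers, Cd8a, Nkg7 and Gzmb had 0 counts in all 24 libraries, Cd4, Adgre1, Trdc, Cd3e and Itgax at most 7, Ptprc and Itgam up to 21 and 30, and Cd14 up to 1225. In such bulk libraries fewer cells of a type cannot be told apart from less RNA per cell. Whole-gene counts cannot show the loss of 1 exon, and Cdk8 stood at 42.4 to 57.3 CPM, counts per 1000000 of the scaled library size, in the libraries labelled Cdk8-/- and 35.8 to 43.2 in WT. Cdk19 had 47.6, 50.1 and 48.6 CPM in WT, but 48.8, 28.1 and 28.3 in the libraries labelled Cdk19-/- and 27.0, 23.8 and 51.7 in those labelled double knockout. Thus replicate 1 of Cdk19-/- and replicate 3 of the double knockout had Cdk19 at the WT level, and the comparisons of Cdk19-/- and of the double knockout were also fitted without these 2 libraries.

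Iigp1, Gbp6 and Gbp2 were near the limit of detection. Iigp1 had 0 counts in 18 of the 24 libraries and at most 3 in the rest, and 3 counts correspond to 0.193 to 0.210 CPM in the genotype experiment and 0.103 to 0.112 CPM in the Senexin B experiment. Gbp6 had between 0 and 13 counts in the genotype libraries and between 9 and 45 in the Senexin B libraries. Gbp2 had between 0 and 26 counts in the former and between 3 and 15 in the latter. In CPM, Gbp2 stood at 0 to 0.412 in WT, 0.137 to 1.41 in Cdk8-/-, 0.264 to 1.75 in Cdk19-/- and 0.341 to 0.845 in the double knockout, and Gbp6 at 0 to 0.0699, 0 to 0.450, 0.198 to 0.876 and 0 to 0.780. Gbp6 in Cdk19-/- thus lay above WT without overlap, but the filter kept it out of the test and edgeR without the filter did not call it, and Gbp2 overlapped WT in every mutant. After the filter on low counts 8 of the 10 genes were tested in each experiment, with Gbp6 and Iigp1 left out of the first, and Gbp2 and Iigp1 out of the second. The transcript of the cytokine itself, Ifng, had a mean of 0 CPM in all 8 groups.

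Per kilobase of exon, Irf1 was the most abundant of the 10 genes in WT organoids at 10.3 ± 1.32 CPM (SD, n = 3), followed by Irgm1 at 4.26 ± 0.259, Igtp at 1.64 ± 0.253, Irgm2 at 1.03 ± 0.103 and Gbp7 at 0.513 ± 0.123. Gbp3, Gbp2 and Gbp9 followed at 0.0770, 0.0725 and 0.0487 CPM per kilobase and did not differ beyond their spread. In organoids given DMSO for 16 h the order began with Irgm1 at 13.6 ± 3.40, Irf1 at 9.30 ± 0.723 and Igtp at 8.48 ± 1.87 CPM per kilobase, and these neighbours overlapped. Irgm2 followed at 5.80 ± 0.804 and Gbp3 at 1.74 ± 0.618. The experiments were normalised separately and prepared differently, so their levels were not compared with each other.

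Irf1, the transcription factor of the group, varied little between genotypes. It had 36.1, 40.1 and 46.5 CPM in WT and 51.2, 34.7 and 63.6 CPM in Cdk8-/-. The libraries labelled Cdk19-/- had 47.9, 45.1 and 36.7 CPM and those labelled double knockout 45.1, 54.0 and 64.9 CPM. Values of every mutant group overlapped those of WT. The log2 fold change against WT was 0.28 (95% interval −0.15 to 0.72) in Cdk8-/-, 0.08 (−0.36 to 0.52) in Cdk19-/- and 0.42 (−0.02 to 0.86) in the double knockout.

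Irgm1, which regulates the effector GTPases, had 24.9, 26.2 and 23.2 CPM in WT and 28.7, 26.4 and 37.1 CPM in Cdk8-/-. In the libraries labelled Cdk19-/- it had 103, 52.1 and 31.8 CPM, and in the double knockout 26.1, 28.3 and 31.3 CPM. The Cdk8-/- libraries lay just above WT, without overlap. All 3 libraries labelled Cdk19-/- lay above all WT and all double knockout libraries, and the highest was replicate 1, in which Cdk19 itself was at the WT level. Irgm2, a second regulator, had 3.43, 4.19 and 3.77 CPM in WT, 5.46, 3.69 and 12 in Cdk8-/-, 28.5, 11.8 and 6.54 in Cdk19-/- and 5.26, 9.36 and 8.97 in the double knockout. Again replicate 1 of Cdk19-/- stood highest, and the Cdk19-/- and double knockout libraries lay above WT without overlap. Igtp, the third regulator, had 3.03, 3.02 and 3.91 CPM in WT, 4.45, 2.73 and 8.55 in Cdk8-/-, 25.3, 10.8 and 3.77 in Cdk19-/- and 2.59, 5.67 and 6.17 in the double knockout. Replicate 3 of Cdk19-/- fell within the WT values of this gene. Igtp and Irgm2 share 162 exon bases, and 11.8% and 7.83% of the 50-base windows of their transcripts also occur in another gene, mostly each other, so part of their reads could not be assigned uniquely.

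The guanylate-binding proteins were low in the genotype experiment. Gbp3 had 0.135, 0.550 and 0.0699 CPM in WT, which are 2, 8 and 1 counts, and 0.741, 0.341 and 2.31 CPM in Cdk8-/-. It had 9.51, 3.32 and 0.661 CPM in Cdk19-/- and 0.273, 1.25 and 1.36 CPM in the double knockout. The spread within Cdk19-/- was thus larger than the distance of its lowest library from WT. Gbp7 had 3.50, 2.13 and 3 CPM in WT, 3.03, 1.84 and 6.55 in Cdk8-/-, 5.46, 5.73 and 2.84 in Cdk19-/- and 1.23, 3.16 and 5.59 in the double knockout. Every mutant group overlapped WT for Gbp7, and 12.7% of its 50-base windows occur in another gene. Gbp9 had 0.202, 0.275 and 0.279 CPM in WT and 2.49, 1.24 and 0.396 CPM in Cdk19-/-, which did not overlap. It had between 0.0683 and 1.16 CPM in Cdk8-/- and between 0.137 and 1.05 CPM in the double knockout, on both sides of WT.

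**Figure D2:**
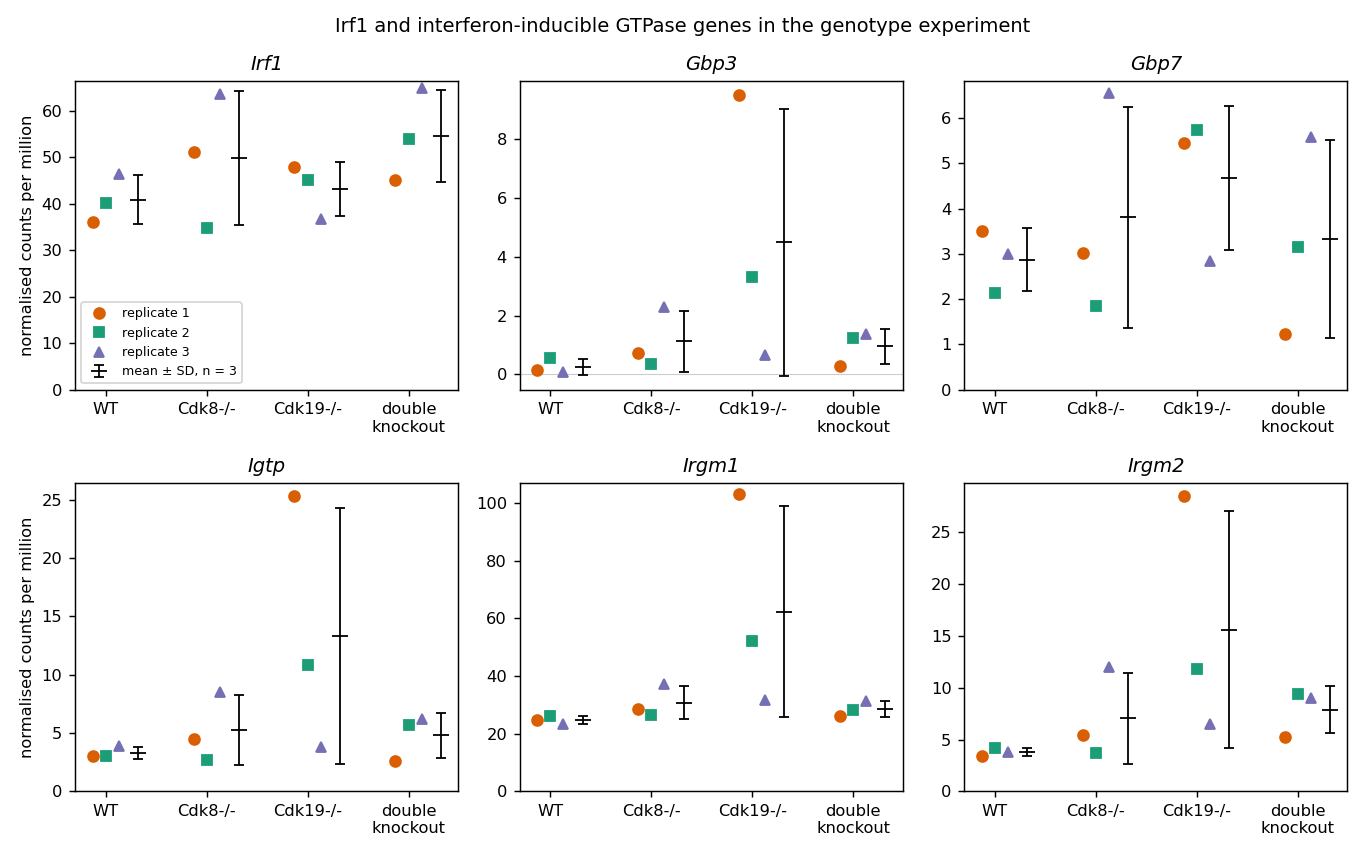
CPM of 6 of the genes (vertical axes, linear scale) in each library of the 4 genotypes (horizontal axes). Symbols are replicates 1 to 3, and black bars give the mean and SD of 3 libraries. Irgm1, Irgm2, Igtp and Gbp3 were highest in replicate 1 of Cdk19-/-, at 103, 28.5, 25.3 and 9.51 CPM, while WT libraries stood close together.

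In the quasi-likelihood test of edgeR with the filter on low counts, none of the 8 genes tested was called in any mutant against WT, whereas DESeq2 and edgeR without the filter called some, as given here. The 3 comparisons share the WT libraries. Gbp2, Gbp3 and Gbp9 had at most 8 counts in a WT library and were kept by the filter only through mutant libraries. With only the compared groups fitted 5 genes were tested, all positive. Their median log2 was 0.39 in Cdk8-/-, 1.35 in Cdk19-/- and 0.43 in the double knockout. For Cdk8-/- against WT edgeR called 0 of 8, where 5.15% of all genes tested were called, and 0 had an unadjusted p under 0.05, against 21.4% of all genes. The median log2 fold change of the 8 was 0.78, against 0.01 over all genes tested, and all 8 values were positive. Without replicate 3, the highest Cdk8-/- library, the values were smaller, with a median of 0.12 and 6 of 8 positive, at 0.10 for Igtp, 0.25 for Irgm2, 0.14 for Irgm1 and 1.07 for Gbp3, while Gbp7 and Gbp9 stood at −0.26 and −0.56. The double knockout against WT gave 0 of 8 called, 0 of 8 at an unadjusted p under 0.05 and a median of 0.79 with all 8 positive, against 17.3% called, 32.1% at that p and a median of −0.01 over all genes. Without replicate 2 of the double knockout this median was 0.47. The Wald test of DESeq2 also called 0 of 8 in both comparisons, where it called 8.45% and 20.8% of all genes. Irgm2 was higher in the double knockout than in WT without overlap, with a log2 fold change of 1.05 ± 0.525 (SE) and an edgeR adjusted p of 0.191, which became 0.0257 (log2 1.06) when only the double knockout and WT libraries were fitted, and 0.0415 without the filter, where 10.4% and 5.42% of all genes were called higher. Without both libraries with Cdk19 at the WT level it was 0.94 (edgeR adjusted p = 0.177), and the median of the 8 genes in the double knockout against WT was 0.62, with 7 positive. Markers differed from WT in both mutants. In Cdk8-/- edgeR called Lgr5 lower and Lyz1 and Muc2 higher, and in the double knockout Lgr5, Dclk1 and Cdx2 lower and Lyz1, Muc2, Krt20, Vil1 and Acta2 higher. Mean levels in WT and the double knockout were 394 and 168 CPM for Lgr5, 337 and 1480 CPM for Lyz1 and 69.6 and 256 CPM for Krt20. The part of these shifts in the values was not tested.

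By the median of the 8 genes the libraries labelled Cdk19-/- stood farthest from WT, although Irf1 differed by only 0.08. The edgeR test called 0 of 8 genes, and 0% of all genes tested, while 5 of the 8 had an unadjusted p under 0.05, as had 10.8% of all genes. The median log2 fold change of the 8 was 2.02, against −0.02 over all genes. With only Cdk19-/- and WT fitted, 5 genes passed the filter, with a median of 1.35. In the fit of all groups the log2 fold change was 4.11 ± 1.06 (SE) for Gbp3, with an edgeR adjusted p of 0.173. It was 2.04 ± 0.523 for Irgm2 (adjusted p = 0.173), 2.00 ± 0.596 for Igtp (adjusted p = 0.209) and 1.33 ± 0.316 for Irgm1 (adjusted p = 0.154). Gbp9 differed by 2.41 ± 0.903, Gbp2 by 2.23 ± 1.02 and Gbp7 by 0.70 ± 0.524, with adjusted p of 0.327, 0.461 and 0.719 in the same test. The Wald test of DESeq2 called 4 of the 8, all higher, with adjusted p of 0.00344 for Irgm1, 0.00484 for Gbp3, 0.00533 for Irgm2 and 0.0259 for Igtp, where it called 1.01% of all genes higher. The same 4 genes passed in edgeR without the filter on low counts, where 0.711% of all genes were called higher. Without replicate 1 of Cdk19-/- the log2 fold changes were smaller, at 0.77 for Irgm1 (edgeR adjusted p = 0.0579), 1.28 for Irgm2 (adjusted p = 0.164), 1.15 for Igtp (adjusted p = 0.318) and 2.96 for Gbp3 (adjusted p = 0.162). The median of the 8 was then 1.21, and edgeR called 0 of them but 3.27% of all genes. The summed immune cell markers stood at 18.3 to 23.7 CPM in Cdk19-/- and 20.3 to 22.9 CPM in WT, and the markers of crypt and differentiated epithelial cells at 3640 to 5430 and 3580 to 3600 CPM. The highest of the latter was Olfm4, a stem cell marker, at a mean of 1620 CPM in WT and 2950 CPM in Cdk19-/-, whereas Muc2 stood at 152 and 92.8, Alpi at 883 and 603 and Krt20 at 69.6 and 27.6 CPM. No marker was called with all libraries, but without both libraries with Cdk19 at the WT level edgeR called Lgr5 and Olfm4 higher and Muc2, Krt8 and Krt20 lower. Their part in the result was not tested.

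Irgm1 fell from a mean of 62.4 ± 36.9 CPM (SD, n = 3) in the libraries labelled Cdk19-/- to 28.6 ± 2.6 CPM (n = 3) in the double knockout. This was a log2 fold change of −1.13 ± 0.313 (SE) with an edgeR adjusted p of 0.0205, and the groups did not overlap. It was the only one of the 8 genes called by edgeR in this comparison, in which 25.3% of all genes were called and 11% were called lower, so 1 of 8 is near the background. Gbp3, Igtp and Irgm2 differed by −2.20 ± 0.877, −1.46 ± 0.577 and −0.99 ± 0.494, with edgeR adjusted p of 0.0844, 0.0822 and 0.162. DESeq2 called 2 of the 8, Irgm1 and Igtp, the latter at an adjusted p of 0.0338, and edgeR without the filter called 4 of 10 lower, where 12.4% and 5.93% of all genes were called lower. The call of Irgm1 was lost when only the compared groups were fitted (edgeR adjusted p = 0.0686), without replicate 1 (adjusted p = 0.0612) or replicate 2 (0.0563) of the double knockout, and without replicate 1 of Cdk19-/- its log2 was −0.57 (adjusted p = 0.0472). Leaving out both libraries with Cdk19 at the WT level gave −0.64 and an edgeR adjusted p of 0.0505. The median of the 8 genes was −1.06, and it was −0.43 without replicate 1 of Cdk19-/-. Over all fits with 1 library left out, Igtp ranged from −1.93 to −0.62, Gbp3 from −2.74 to −1.06 and Irgm2 from −1.38 to −0.24. The lowest values of Igtp and Gbp3 were those without replicate 3 of Cdk19-/-, where edgeR called Irgm1, Igtp and Gbp3 and 8.02% of all genes lower. Markers differed between these groups too. Of 6 epithelium markers 3 were called higher and 1 lower in the double knockout, of 7 markers of crypt and differentiated cells 3 higher and 2 lower, of 3 immune markers tested 2 higher and of 2 stromal ones 1 higher. Lgr5, a stem cell marker, stood at a mean of 557 CPM in Cdk19-/- and 168 CPM in the double knockout, and Lyz1, a Paneth cell marker, at 305 and 1480 CPM. The part of these shifts in the result was not tested.

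Against Cdk8-/-, the double knockout showed 0 of 8 genes called by edgeR and by DESeq2, where these called 0.0256% and 2.64% of all genes, and 0 of 8 at an unadjusted p under 0.05, against 15.5% of all genes. The values lay between −0.24 and 0.23 on the log2 scale, with an interval of −0.79 to 0.58 for Irgm1 and −2.29 to 1.82 for Gbp3. They rested on replicate 3 of Cdk8-/-, without which all 8 were positive, with a median of 0.62 and a highest value of 1.77, and 0 of the 8 but 5.28% of all genes were called. The departure of the double knockout from the sum of the single mutants was negative for 7 of 8 genes, with a median log2 of −2.00 against −0.01 over all genes. edgeR called 0 of 8, with 4 of 8 at an unadjusted p under 0.05, as had 14.5% of all genes, and 0.0256% of all genes called, and its lowest adjusted p was 0.176, for Irgm1 at −1.44 ± 0.444. DESeq2 called 2 of the 8 lower, Irgm1 at an adjusted p of 0.0370 and Gbp3 at 0.0405, where it called 1.08% of all genes lower. Without replicate 3 of Cdk8-/- the median departure was −1.03, with 1 gene at an unadjusted p under 0.05, and without replicate 1 of Cdk19-/- it was −1.20. Without replicate 1 of Cdk19-/- the departure was −0.87 for Irgm1 (edgeR adjusted p = 0.101), −1.27 for Igtp and −1.12 for Irgm2. Without both libraries with Cdk19 at the WT level it was −0.94 for Irgm1 (adjusted p = 0.0934), −1.48 for Igtp and −1.22 for Irgm2, with a median of −1.40 over the 8 genes.

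**Figure D3:**
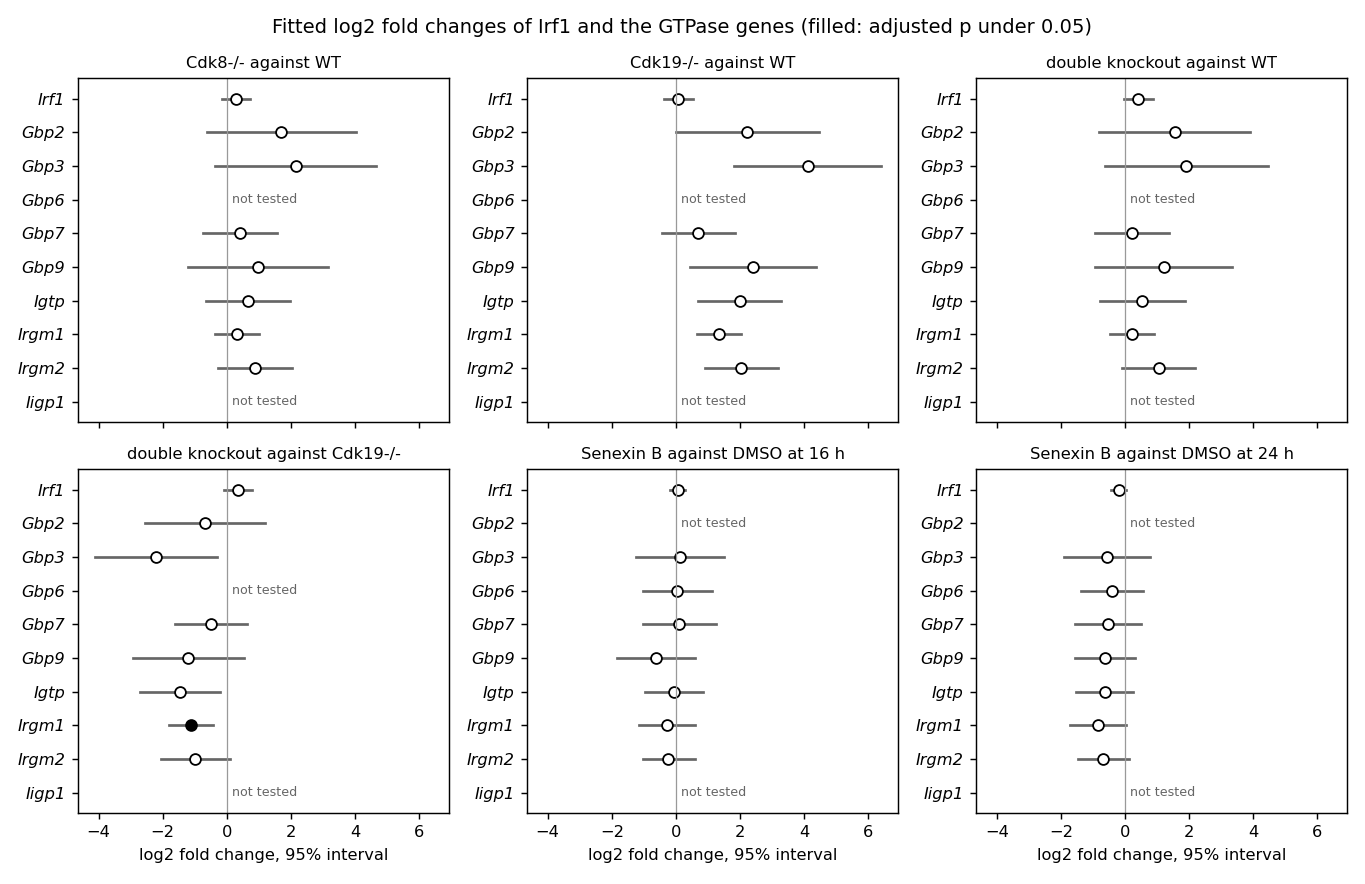
Fitted log2 fold changes (points) with 95% intervals (lines) of the 10 genes in 6 comparisons, with filled points for an edgeR adjusted p under 0.05. All 8 genes tested were positive against WT in each mutant, and the single filled point is Irgm1 in the double knockout against Cdk19-/-, at −1.13.

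Senexin B was compared with DMSO at each time. At 16 h Irgm1 had 57.2, 83.3 and 95.9 CPM with DMSO and 29.4, 88.4 and 76.6 with Senexin B, in replicates 1, 2 and 3. At 24 h it had 53.1, 115 and 111 CPM with DMSO and 24.2, 63.3 and 68.1 with Senexin B. Replicate 1 was the lowest of its group throughout, and the Senexin B library stood below the DMSO library of the same number in all 3 pairs at 24 h, at 45.6%, 55.3% and 61.6% of it. At 16 h these shares were 51.4%, 106% and 79.8%. At each time, the deviations of Senexin B and DMSO libraries of the same number correlated at over 0.1, but this does not establish that they are paired. A fit with the replicate number as a block is given beside the fit without it.

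Irgm2 had 16.7, 33.3 and 31.8 CPM with DMSO for 24 h and 7.68, 22.1 and 21.4 with Senexin B. At 16 h it had 18.1, 22.4 and 23.8 CPM with DMSO and 8.74, 23.2 and 22.7 with Senexin B. In all 3 pairs at 24 h the Senexin B library was lower, whereas at 16 h replicates 2 and 3 had nearly equal values. Igtp had 11.2, 27.5 and 23.3 CPM with DMSO for 24 h and 5.53, 16.4 and 17.7 with Senexin B. At 16 h it had 13.6, 16.7 and 21.1 CPM with DMSO and 7.55, 22.7 and 19.1 with Senexin B. It was lower in 3 of 3 pairs at 24 h and in 2 of 3 at 16 h.

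Gbp3 had 3.12, 11.3 and 9.41 CPM with DMSO for 24 h and 1.22, 6.27 and 8.59 with Senexin B. At 16 h it had 3.64, 5.72 and 7.67 CPM with DMSO and 1.30, 10.6 and 6.76 with Senexin B. The groups overlapped at both times, and replicate 2 was higher with Senexin B at 16 h and lower at 24 h. Gbp7 had 0.876, 2.15 and 2.20 CPM with DMSO for 24 h and 0.371, 1.36 and 1.87 with Senexin B. Gbp9 had 0.456, 1.09 and 0.724 CPM with DMSO for 24 h and 0.186, 0.770 and 0.514 with Senexin B. Both were lower with Senexin B in 3 of 3 pairs at 24 h, at counts of 5 to 64 per library. At 16 h Gbp7 had 0.625, 0.847 and 1.48 CPM with DMSO and 0.706, 1.73 and 0.739 with Senexin B, and Gbp9 0.294, 0.459 and 0.396 with DMSO and 0.112, 0.404 and 0.222 with Senexin B. Gbp9 was thus lower in 3 of 3 pairs at 16 h also, and Gbp7 in 1 of 3. Gbp2, which the filter kept out of the test, had 0.315, 0.529 and 0.310 CPM with DMSO for 24 h and 0.148, 0.220 and 0.294 with Senexin B, without overlap, but overlapped at 16 h. Gbp6 had 0.491, 1.23 and 1.55 CPM with DMSO for 24 h and 0.334, 1.10 and 1.03 with Senexin B, but 70.7% of its 50-base windows occur in another gene, so its counts are uncertain. At 16 h Gbp6 had 0.588, 0.565 and 0.936 CPM with DMSO and 0.335, 1.03 and 0.776 with Senexin B. Irf1 had 41.6, 47.4 and 48.3 CPM with DMSO for 24 h and 36.5, 42.8 and 40.7 with Senexin B. At 16 h it had 40.2, 36.0 and 34.7 CPM with DMSO and 31.4, 43.0 and 40.7 with Senexin B, which overlapped.

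**Figure D4:**
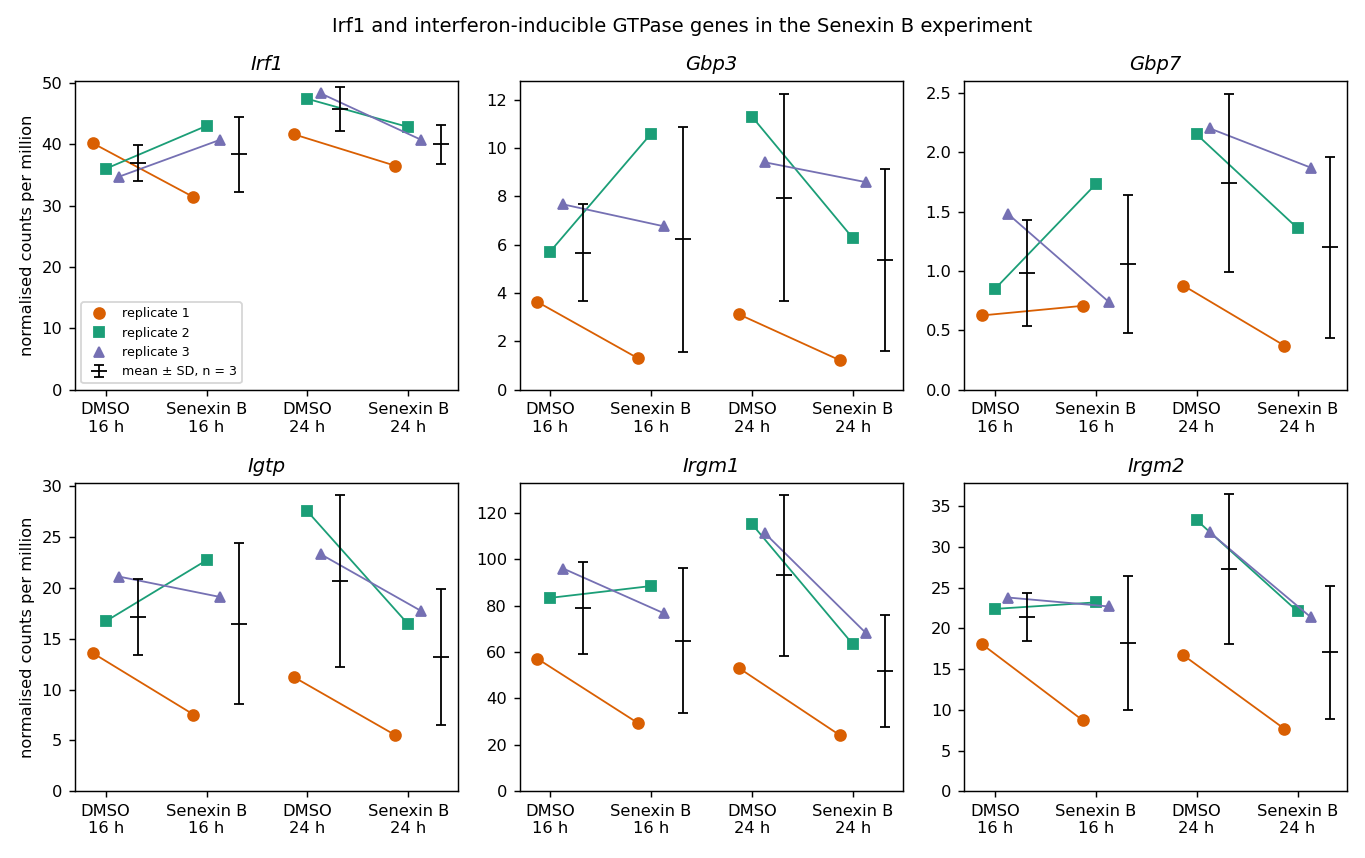
CPM of 6 of the genes (vertical axes, linear scale) in each library of the Senexin B experiment (horizontal axes). Lines join DMSO and Senexin B libraries of the same replicate number and time, and black bars give the mean and SD of 3 libraries. At 24 h all lines of Irgm1, Irgm2 and Igtp go down, and replicate 1 of Irgm1, at 53.1 and 24.2 CPM, lies lowest at that time.

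At 24 h edgeR without a block called 0 of 8 genes, with 0 of 8 at an unadjusted p under 0.05, where 27.5% of all genes were called and 39.2% had such a p, and DESeq2 also called 0, where it called 28% of all genes. All 8 values were negative, with a median log2 of −0.59 against 0.00 over all genes. The median was −0.18 without replicate 1 of Senexin B, −0.34 without replicate 2 of DMSO, −0.91 without replicate 1 of DMSO and −0.89 without replicate 3 of Senexin B, and all 8 values stayed negative in these fits. With the replicate block 3 of the 8 genes fell, namely Irgm1 by 0.88 ± 0.133 (SE) on the log2 scale, Irgm2 by 0.72 ± 0.161 and Igtp by 0.67 ± 0.175, with edgeR adjusted p of 0.000139, 0.00273 and 0.00729, where 17.6% of all genes were called lower. Without the block the same genes had log2 values of −0.84 ± 0.408, −0.68 ± 0.376 and −0.64 ± 0.421 and adjusted p of 0.143, 0.199 and 0.279. Irf1 differed by −0.20 ± 0.0912 with the block (adjusted p = 0.106 in edgeR) and Gbp3 by −0.62 ± 0.273 (adjusted p = 0.0885). Without the filter on low counts the 3 GTPases also passed in the fit without the block, where 7.03% of all genes were called lower.

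Some cell type markers, most of them epithelial, also shifted at 24 h, when Irgm1, Irgm2 and Igtp were lower. The summed level of the 12 immune markers was 16.3 to 17.3 CPM with DMSO and 31.5 to 45.4 CPM with Senexin B at 24 h, with 7 and 6 of them at 0, and nearly all of it was Cd14, at a mean of 16.2 and 38.4 CPM. The summed epithelium markers stood at 6480 to 6940 and 7430 to 7900 CPM, of which edgeR called Krt8 higher, at a mean of 2870 and 3920 CPM, and Krt20 lower, at 79.8 and 45.2 CPM, and none of the other 4. Of 7 markers of crypt and differentiated cells 2 were called higher and 2 lower by edgeR. Mean levels with DMSO and Senexin B were 396 and 202 CPM for Lgr5, 613 and 303 for Lyz1 and 831 and 675 for Alpi. They were 1040 and 1110 CPM for Olfm4, 165 and 180 for Muc2, 41.6 and 65.7 for Chga and 7.03 and 9.64 for Dclk1. The stroma and vessel markers summed to 1.55 to 1.94 CPM with DMSO and 1.94 to 4.52 CPM with Senexin B. The part of these shifts in the result was not tested.

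At 16 h 0 of 8 genes were called by edgeR without the block, where 7.75% of all genes were called, and 0 of 8 with the block, where 14.8% were, with 0 and 1 of 8 at an unadjusted p under 0.05, which 22.5% of all genes had without the block. DESeq2 called 0 of 8 as well, and 9.72% of all genes. The median log2 was −0.01, equal to that over all genes, and it was 0.23 without replicate 1 of Senexin B and −0.43 without replicate 2. With the block Irgm1 differed by −0.39 ± 0.133 (edgeR adjusted p = 0.0611, 95% interval −0.67 to −0.11). The difference between the effects at 24 h and 16 h was tested directly and called for 0 of 8 genes, with 0% of all genes called by edgeR without the block and 0.388% with it, and with 0 and 1 of 8 at an unadjusted p under 0.05, which 12.9% of all genes had without the block. DESeq2 also called 0 of 8, and 0.472% of all genes. For Irgm1 it was −0.56 (95% interval −1.78 to 0.67) without and −0.49 (−0.89 to −0.09) with the block, with edgeR adjusted p of 0.726 and 0.181. A larger effect at 24 h was therefore not shown for these genes. Between DMSO at 24 h and 16 h 0 of 8 genes were called by edgeR, where 11.1% of all genes were, with 1 of 8 at an unadjusted p under 0.05, against 28.1% of all genes. That was Irf1, at 0.31 ± 0.109 (edgeR adjusted p = 0.0801), without overlap of the groups, and DESeq2 called it at an adjusted p of 0.0423, where it called 6.27% of all genes higher.

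Averaged over Irf1, Gbp3, Gbp7, Gbp9, Igtp, Irgm1 and Irgm2, the centred log2 CPM was highest in replicate 1 of Cdk19-/- at 1.72 and lowest in replicate 1 of Senexin B at 24 h at −1.24. Within Cdk19-/- it ranged from −0.23 to 1.72, within Cdk8-/- from −0.85 to 0.78 and within WT from −0.74 to −0.53. Variation within the mutant groups was therefore wider than within WT. Irgm2 and Igtp stayed closest to the mean of the other genes over the 24 libraries, with root mean square differences of 0.191 and 0.222 on the log2 scale, and Gbp3 and Irf1 were farthest at 0.764 and 0.690. The genes outside the lists whose pattern was most like the average were Parp12 at 0.253, Dhx58 at 0.272, Rnf213 at 0.274, Cmpk2 at 0.333 and Parp9 at 0.376, among 10472 genes ranked.

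**Figure D5:**
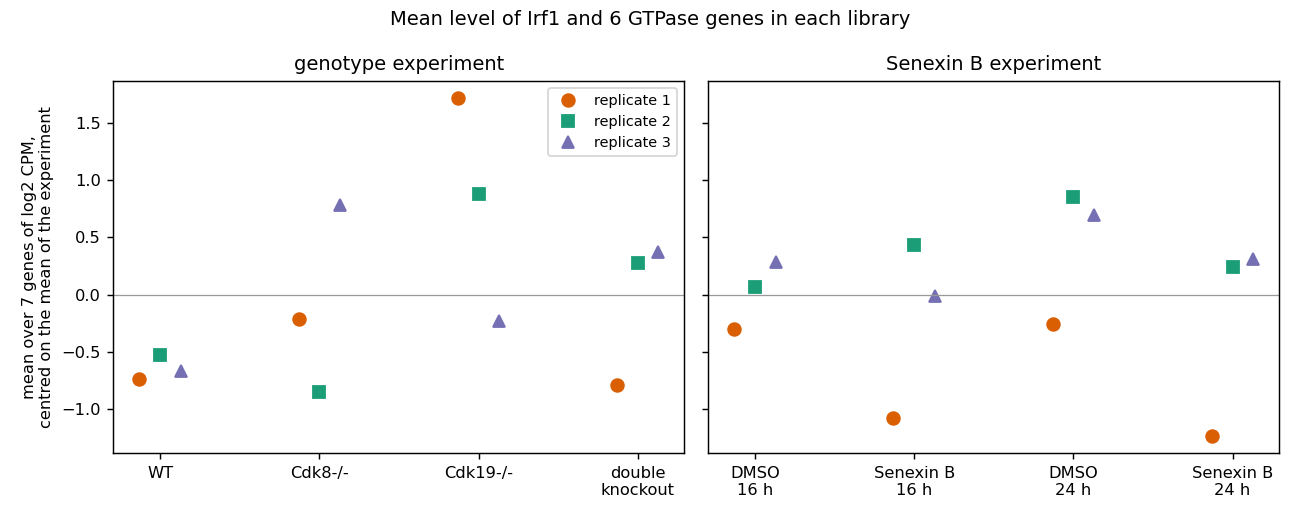
Mean over 7 genes of log2 CPM, centred on the mean of each experiment (vertical axis), for each library (symbols are replicates) of the groups on the horizontal axis. Replicate 1 of Cdk19-/- stands highest at 1.72, and replicate 1 is lowest in every group of the Senexin B experiment.

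The receptor and signalling genes upstream were detected. Of 14 listed genes of interferon-gamma signalling 13 were tested, all but Ifng, and none was called in Cdk8-/- or Cdk19-/- against WT by edgeR. In Cdk19-/- the log2 fold changes were 1.32 for Irf9 and 1.03 for Stat2, with edgeR adjusted p of 0.155 and 0.173, and those of Ifngr1, Ifngr2, Jak1, Jak2, Stat3, Irf2, Irf8, Socs1, Socs3 and Ptpn2 lay between −0.30 and 0.35. Without both libraries with Cdk19 at the WT level Irf9 and Stat2 stood at 1.00 and 0.61 (adjusted p of 0.106 and 0.120), and Jak2 rose by 0.60 (adjusted p = 0.00500). In the double knockout Stat3 rose by 0.40 (adjusted p = 0.0116) and Irf8 fell by 0.55 (adjusted p = 0.0383). Both were also called by edgeR without those 2 libraries, as was Stat2, at 0.85 (adjusted p = 0.0143). With Senexin B at 24 h, 5 of 13 fell and 1 rose without the block, where 12.7% of all genes were called lower and 14.8% higher. Stat2, which acts in type I interferon signalling, fell by 0.80 (edgeR adjusted p = 0.0148), Stat3 by 0.49 (8.4e-05), the kinases Jak1 and Jak2 by 0.25 (0.0088) and 0.31 (0.0112), and Irf8 by 0.26 (0.0123). The receptor gene Ifngr1 rose by 0.35 (adjusted p = 0.000861). At 16 h Ifngr1 rose by 0.31, Stat3 fell by 0.45 and Irf8 by 0.43, with adjusted p of 0.00601, 0.000383 and 0.00159.

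Of 16 other interferon-inducible GTPases 5 were tested in the genotype experiment and 7 in the Senexin B experiment, since most were at or near 0. None of the 5 was called against WT by edgeR. Mx2, an antiviral dynamin-like GTPase, had a log2 of 3.42 (adjusted p = 0.122) in Cdk19-/-, where Mx1 stood at 2.12, Ifi47 at 1.08, Gbp8 at 0.01 and Irgq at −0.03. Without both libraries with Cdk19 at the WT level Mx2 stood at 2.85 (edgeR adjusted p = 0.0571) and Mx1 at 0.59. With Senexin B at 24 h Mx2 fell by 1.37 (edgeR adjusted p = 0.0436) and Gvin1 rose by 1.54 (adjusted p = 0.0236) at a mean of 0.174 and 0.516 CPM. Mx1, Tgtp2, Ifi47, Gm12250 and Irgq lay between −0.90 and 0.22 and were not called.

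Of 12 antigen presentation genes tested, 11 had positive values in each mutant against the shared WT libraries, with median log2 values of 0.42 in Cdk8-/-, 0.37 in Cdk19-/- and 0.50 in the double knockout, and 0, 0 and 3 were called higher, the last where 9.41% of all genes were. Without both libraries with Cdk19 at the WT level 9 were positive in Cdk19-/-, with a median of 0.09, and 10 in the double knockout, with a median of 0.43. With all libraries 3 rose in the double knockout, namely H2-K1 by 0.84, B2m by 0.85 and Psme2 by 0.49 on the log2 scale, with edgeR adjusted p of 0.0182, 0.0194 and 0.0495, and 1 rose with Senexin B at 24 h, the immunoproteasome gene Psmb10 by 0.30 (adjusted p = 0.0456). Of 12 further targets tested against WT, Upp1 rose in Cdk8-/- by 1.49 (edgeR adjusted p = 0.0217), where 2.79% of all genes were called higher. In the double knockout 9.41% of all genes were called higher and 7.9% lower. There Upp1, Cxcl9, Gch1 and Casp1 rose by 2.08, 3.51, 0.50 and 0.30, while Cd274, which encodes PD-L1, fell by 1.08. Without those 2 libraries edgeR called the same antigen presentation genes and all of these but Casp1 (0.27, adjusted p = 0.0693) in the double knockout, and Nos2 fell by 2.06 in Cdk19-/- (adjusted p = 0.0276). With Senexin B at 24 h, Cxcl11, Icam1 and Cd274 fell by 1.24, 0.68 and 0.59 and Nos2 and Casp4 rose by 0.76 and 0.49, of 11 tested. In that comparison 12.7% of all genes were called lower and 14.8% higher. At 16 h Casp4 rose by 0.48 and Icam1 fell by 1.17, where 4.36% of all genes were called higher and 3.39% lower. Between DMSO at 24 h and 16 h Jak2, Irf2, Cd274, Nos2 and Casp4 rose and Irf8 fell.

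The 18 genes of the type I interferon list, all tested, included Ifit1, which rose in the double knockout by 2.34 (edgeR adjusted p = 0.0343), and Ifit3, Rsad2 and Zbp1, which fell with Senexin B at 24 h by 2.26, 1.76 and 1.73 (adjusted p of 0.00475, 0.0261 and 0.0213). The median log2 of the 18 was 2.77 in Cdk19-/- against WT, with 18 positive and 0 called, where 0% of all genes were called. With Senexin B at 24 h it was −0.65, with 0 positive and 3 called lower, where 12.7% of all genes were. In the double knockout against Cdk19-/- 5 of the 18 were called lower, where 11% of all genes were. Without both libraries with Cdk19 at the WT level the median in Cdk19-/- was 2.09, with 18 positive and 2 called, Oas2 and Ifi44, where 4.21% of all genes were called. In the double knockout against Cdk19-/- 1 of the 18, and 13.4% of all genes, were then called lower. Ifit1 in the double knockout against WT was no longer called (2.02, edgeR adjusted p = 0.0649).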

How the data were processed

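RNA-seq libraries were single-end reads of 50 bp. Per the labels and methods, the authors aligned them with STAR to GRCm38 and deposited, for each library, the number of reads counted on each of 54146 genes, without normalisation, once without regard to strand and once per strand. The submitters' processing notes name STAR 2.6.0c and GRCm38.p6. The labels disagree on the RNA of the Senexin B libraries, since they give total RNA with ribosomal RNA removed beside a protocol with oligo(dT). The deposited counts of the second strand column were used. In the genotype experiment a median of 49.8% of a gene's stranded reads fell in this column, so strand could not be told and antisense genes may share reads (Irf1 shares 135 exon bases with Gm17334), whereas it was 91.9% in the Senexin B experiment. Only uniquely mapped reads enter these counts, which leaves genes with near-identical copies uncertain. No pair of replicates was a duplicate.

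Each experiment was fitted alone, with its 12 libraries, with edgeR 4.0.16 (quasi-likelihood test, TMM scaling, filterByExpr) under R 4.3.3. This tested 15602 and 15467 genes in 10 contrasts. Genes with a Benjamini-Hochberg adjusted p under 0.05 over all genes tested were called. CPM are counts per 1000000 of the TMM-scaled library size. Intervals of log2 fold changes are 95% intervals on the degrees of freedom of the fit. Figures were drawn with matplotlib 3.10.9. The scripts were tested on simulated data.

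The 10 genes, the other lists and the comparisons were chosen with earlier results of these data known. Of the other lists except the markers, which are given by counts and examples, genes called against WT or DMSO and those of interferon-gamma signalling and of the other GTPases are named, and the 5 genes of most similar pattern had a mean log2 CPM of at least 2. One listed symbol of the further targets was not matched. One gene of the signalling list and one immune marker are not reported here. Deviations from the group means, on log2 CPM with a prior count of 2, correlated between libraries of the same replicate number at 0.303, 0.101 and 0.110 at 16 h and at 0.377, 0.137 and 0.187 at 24 h between Senexin B and DMSO, against at most 0.154 and 0.147 between different numbers. Every pair was over the threshold of 0.1, which was the ground for the block. Replicates 2 and 3 at 16 h and replicate 2 at 24 h stood below the highest value between different numbers. These correlations therefore do not establish that the numbers pair the libraries. For DMSO at 24 h against 16 h and in the genotype experiment not every pair was over 0.1.

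The fits were repeated with DESeq2 1.42.0 (Wald test), with its size factors used by edgeR, with no filter, with a minimum of 10 counts in each library, with a replicate block, on the unstranded column, on the compared groups alone, and without each library in turn. Leaving out both libraries with Cdk19 at the WT level (for the lists too), and DESeq2 on the unstranded column, were chosen after seeing the data.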

Additional observations from a re-analysis of the deposited data

How the results depend on the processing

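Calls of these genes differed between settings. DESeq2 called 4 genes in Cdk19-/- against WT, 2 in the double knockout against Cdk19-/-, 2 for the departure from additivity and 1, Irf1, in DMSO at 24 h against 16 h, where it called 2.01%, 28.2%, 3.18% and 14.8% of all genes, and on the unstranded column 4, 3, 2 and 1. Without the filter on low counts edgeR called 4, 4, 4 and 1 in these, 1 in the double knockout against WT and 3 with Senexin B at 24 h, where it called 1.61%, 13.8%, 1.9%, 6.55%, 9.71% and 15% of all genes. With only the groups compared it called 1, Irgm2, in the double knockout against WT and 0 in the double knockout against Cdk19-/-, where leaving out both libraries with Cdk19 at the WT level also gave 0. With the replicate block it called 3 with Senexin B at 24 h. In DMSO at 24 h against 16 h, where not every pair passed the threshold of 0.1, it called 2 (Irf1 and Gbp9) and 21.2% of all genes. Over all genes, DESeq2 called 313 in Cdk19-/- against WT and 496 for the departure from additivity, where edgeR called 0 and 4. Leaving out 1 library gave 0 to 3 genes called in the double knockout against Cdk19-/- and 0 to 1 in DMSO at 24 h against 16 h, and 0 in the other 8 comparisons. The block changed no other call. No causes were tested. DESeq2 size factors, a minimum of 10 counts in each library and edgeR on the unstranded column changed no count of genes called. The minimum of 10 counts left only 5 genes tested in the genotype experiment and 6 in the Senexin B experiment. With it the median log2 against WT was 0.40 in Cdk8-/-, 1.34 in Cdk19-/- and 0.42 in the double knockout, and the median departure from additivity was −1.44.

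Some values that were not called changed sign. With the block Gbp3 was −0.01 with Senexin B at 16 h, and without both libraries with Cdk19 at the WT level Gbp7 was −0.39 in the double knockout against WT and the departure of Irf1 from additivity was −0.01. Leaving out 1 library changed the sign of 22 of 80 log2 fold changes, whose ranges follow. For double knockout against Cdk19-/- these were Gbp2 −1.13 to 0.24. For double knockout against Cdk8-/- these were Gbp2 −0.61 to 1.41, Gbp3 −0.66 to 0.83, Gbp7 −0.78 to 0.46, Gbp9 −0.46 to 1.77, Igtp −0.43 to 0.43, Irf1 −0.07 to 0.36, Irgm1 −0.20 to 0.06 and Irgm2 −0.15 to 0.79. For Senexin B against DMSO at 16 h these were Gbp3 −0.49 to 0.61, Gbp6 −0.32 to 0.37, Gbp7 −0.43 to 0.52, Igtp −0.35 to 0.29, Irf1 −0.03 to 0.18, Irgm1 −0.57 to 0.07 and Irgm2 −0.44 to 0.10. For Cdk8-/- against WT these were Gbp7 −0.26 to 0.74 and Gbp9 −0.56 to 1.48. For double knockout against WT these were Gbp7 −0.39 to 0.61. For Senexin B effect at 24 h against 16 h these were Gbp9 −0.47 to 0.55. For Cdk19-/- against WT these were Irf1 0.00 to 0.20, where the sign changed by less than the rounding. For departure of the double knockout from additivity these were Irf1 −0.15 to 0.27.

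Low counts limit Gbp2, Gbp6, Gbp9 and Iigp1 in both experiments and Gbp3 in the genotype experiment, and each group has only 3 libraries.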
